A study of Homo sapiens with 18 samples.

Results

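Cholesterol and fatty acid synthesis was followed here through 8 genes, SREBF1, SREBF2, HMGCS1, SQLE, FASN, ACACA, ACLY and SCD, in peak lists of MAX, the DNA-binding partner of MYC. The genes were taken as a named set from the 19970 protein-coding genes of the RefSeq table (GRCh38.p14, chromosomes 1 to 22 and X), and a MAX peak was assigned to a gene when its summit lay inside the gene or within 2500 bp of an outer end. The cells were U2OS, a human osteosarcoma line, in which the endogenous MYC had been knocked out and a doxycycline-inducible MYC had been put in its place. This MYC was the 3A mutant, the 7A mutant or the wild-type form (WT), and the labels name the mutants without giving the residues changed. Each form was profiled with 1 µg/ml doxycycline over 24 h and with PBS alone, in 12 MAX immunoprecipitations (6 groups of 2 biological replicates) and 6 inputs, with 10% mouse NIH3T3 cells mixed in for calibration. The sources are at odds on the antibody, since the immunoprecipitations are labelled MAX and their protocol describes anti-FLAG. The labels do not say whether each line was a clone.

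The data are 3 peak lists, 1 per MYC form, and there is no list for a single replicate or for doxycycline or PBS alone. The name of each list carries its MYC form with + and with −, and the labels do not explain these signs. Whether the + and − libraries were pooled, or 1 set served as the control of the other, is not stated. Every value below therefore describes 1 list without a replicate check, and no test between MYC forms was possible. The 3A list held 27294 peaks with a median width of 578 bp, the 7A list 25159 peaks with a median width of 672 bp and the WT list 34622 peaks with a median width of 552 bp. Sequencing depth is not given in the lists. Peak positions, fold enrichments and −log10 q values are the authors' own. Peaks were compared by the rank of their fold enrichment within a list, given as a percentile with 100 for the strongest peak. The folds printed beside the percentiles are values of their own list and are not compared between lists. Because the lists differ in length, percentiles after cutting each list to the 25159 peaks of highest −log10 q are given where a gene stood apart.

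Cells make cholesterol and fatty acids from the same cytosolic acetyl-CoA. ATP-citrate lyase supplies it, one branch leads through the mevalonate pathway to sterols, and the other through malonyl-CoA to saturated and then desaturated fatty acids. The SREBP transcription factors switch on both branches when sterols run low. SREBPs, like MYC and MAX, belong to the basic helix-loop-helix leucine zipper proteins, and MYC-MAX dimers bind DNA preferentially at the E-box CACGTG.

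At least 1 MAX peak was found at 7 of the 8 genes in the 3A list, at 7 in the 7A list and at 7 in the WT list, and these were the same 7 genes. ACACA was the gene without a peak. Over all protein-coding genes, the same rule found a peak at 67.7% in the 3A list, 66.6% in the 7A list and 70.8% in the WT list, and at 65.7% in all 3. A further 2.97% of all genes had a peak in the WT list and in neither mutant list, and none of the 8 genes was among them. With 8 genes, these counts are a description and do not set the genes apart from the rest.

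The strongest peaks of the genes ranked high in their lists. Over the 7 genes the strongest peak had a median percentile of 89.0 in the 3A list (75.0 to 98.8), 88.5 in the 7A list (77.0 to 98.2) and 93.5 in the WT list (38.2 to 99.2). Over all genes with a peak, the median percentile of the strongest peak was 71.0 in 3A, 68.5 in 7A and 74.7 in WT. Most of these peaks were also broad, with a median width of 1354 bp in 3A, 1626 bp in 7A and 1858 bp in WT. The medians over all genes with a peak were 831 bp, 898 bp and 947 bp in the same lists. Not every gene was above them. In 3A, HMGCS1 (692 bp), ACLY (703 bp) and SCD (375 bp) were below. In 7A, ACLY (719 bp) and SCD (541 bp) were below, and in WT HMGCS1 (783 bp) was.

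**Figure D1:**
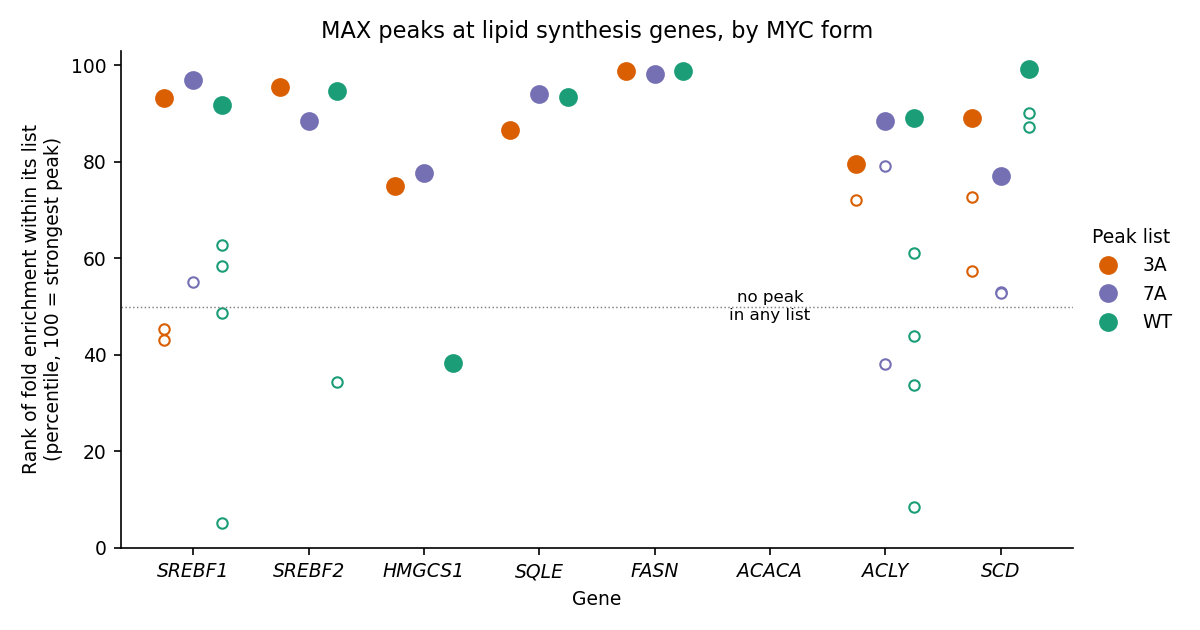
Within-list percentile of fold enrichment (y axis, 100 is the strongest peak of its list) for every MAX peak at the 8 genes (x axis) in the 3A, 7A and WT lists. Large filled points are the strongest peak of a gene in a list, small open points its other peaks, and the dotted line marks the middle of a list; FASN lies above 98 in all 3 lists, HMGCS1 at 75.0 in 3A, 77.6 in 7A and 38.2 in WT.

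The promoter letters of 4 of the genes are shown because peaks overlap those of SREBF2, HMGCS1 and SCD, with ACACA as the gene without a peak, and because they carry few of the letters that MYC-MAX dimers are known for. Each line gives the 250 bases before a RefSeq start site, 5′ to 3′ on the gene's strand (RefSeq, GRCh38.p14). Capitals mark every match on either strand to CANNTG (the general E-box, which includes CACGTG), to CACGCG (a variant E-box), to TCACNCCAC (the core of a classical sterol regulatory element) and to CCAAT (the box bound by NF-Y). The windows are chr22:41832855-41833104, plus strand, for SREBF2, chr5:43313413-43313662, minus strand, for HMGCS1, chr10:100346983-100347232, plus strand, for SCD and chr17:37406837-37407086, minus strand, for the most upstream start of ACACA.
SREBF2: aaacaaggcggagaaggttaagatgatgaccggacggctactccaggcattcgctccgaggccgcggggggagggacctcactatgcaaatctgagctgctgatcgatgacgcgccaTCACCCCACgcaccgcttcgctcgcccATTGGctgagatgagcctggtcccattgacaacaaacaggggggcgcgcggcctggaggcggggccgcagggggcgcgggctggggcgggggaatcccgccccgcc
HMGCS1: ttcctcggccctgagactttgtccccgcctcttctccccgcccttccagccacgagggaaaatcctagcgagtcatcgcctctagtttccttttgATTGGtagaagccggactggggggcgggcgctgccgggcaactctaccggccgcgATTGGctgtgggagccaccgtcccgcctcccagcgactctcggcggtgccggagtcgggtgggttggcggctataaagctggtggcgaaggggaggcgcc
SCD: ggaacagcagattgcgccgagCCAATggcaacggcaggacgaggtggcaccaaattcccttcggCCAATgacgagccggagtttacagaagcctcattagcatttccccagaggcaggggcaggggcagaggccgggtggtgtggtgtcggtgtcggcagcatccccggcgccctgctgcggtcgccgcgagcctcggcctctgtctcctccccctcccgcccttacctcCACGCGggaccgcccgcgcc
ACACA: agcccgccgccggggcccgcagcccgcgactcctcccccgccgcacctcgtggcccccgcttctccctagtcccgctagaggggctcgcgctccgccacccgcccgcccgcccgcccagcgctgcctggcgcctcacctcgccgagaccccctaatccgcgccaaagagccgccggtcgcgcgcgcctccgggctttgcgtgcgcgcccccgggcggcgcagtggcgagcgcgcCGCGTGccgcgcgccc

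The promoter table held 10 windows of 300 bases (250 before to 50 after a start site) for 6 of the genes, and none for FASN and SQLE. None of the 10 windows contained CACGTG. The general E-box CANNTG was absent from 9 of them, and the window that held it belonged to an internal start of ACACA that no peak touched. ACACA lies in a stretch of 3.09 Mb without a summit in any list (described below). The absence of a peak at its windows therefore cannot be related to their letters. All 7 windows of SREBF1, SREBF2, HMGCS1, ACLY and SCD were overlapped by a peak in all 3 lists, and none had a CANNTG. Of all 34961 promoter windows, a peak overlapped 14132 in the 3A list, 14151 in the 7A list and 15048 in the WT list. Among all 34961 windows, 68.7% held CANNTG and 7.27% held CACGTG. Among the windows that a peak overlapped, CANNTG stood in 58.2% in the 3A list, 58.2% in the 7A list and 58.6% in the WT list, and CACGTG in 10.7%, 10.6% and 10.6%. The windows of HMGCS1 and of ACLY overlap each other, and the peaks reach beyond the windows, so sequence elsewhere under the peaks was not searched.

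Other letters did occur. CACGCG stood 20 bases before the start of SCD, 16 bases before the upstream start of ACACA and 32 bases before the start of ACLY, and in 11.4% of all windows, 20.1% of those on 3A peaks, 20.2% of those on 7A peaks and 19.9% of those on WT peaks. The sterol element letters TCACNCCAC stood in the SREBF2 window alone, 133 bases before its start, with CCAAT letters 106 bases before it. Over all windows TCACNCCAC was found in 1.13% and CCAAT in 34.6%. HMGCS1 had CCAAT letters 155 and 100 bases before its start, and SCD 229 and 186 bases before its own. ACLY had them 65 and 23 bases before its upstream start. CCAAT letters also stood before the internal starts of ACACA, and the SREBF1 window had none. A match of letters is not a binding site, and the absence of a match says only that these letters are not in the window.

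Both SREBP genes carried a strong peak just inside their start. SREBF1 encodes the SREBP-1 isoforms, which mainly drive fatty acid genes. Its strongest peak spanned chr17:17835830-17837575 in the 3A list, chr17:17835807-17837633 in the 7A list and chr17:17835741-17837598 in the WT list. The summits lay 752, 760 and 749 bp downstream of the start site in 3A, 7A and WT, so the position was shared to within 11 bp. The fold enrichment ranked at percentile 93.3 in 3A (fold 30.8), 97.0 in 7A (fold 43.1) and 91.7 in WT (fold 32.9). Widths were 1746 bp in 3A, 1827 bp in 7A and 1858 bp in WT.

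The body of SREBF1 is where the lists differed most among the SREBP genes. It held 3 peaks in all in the 3A list, 2 in the 7A list and 5 in the WT list. A peak near 13 kb downstream of the start was present in all 3 lists, at percentile 45.4 in 3A, 55.1 in 7A and 48.6 in WT, with its summit 13382, 13398 and 13165 bp from the start. A narrower peak 17148 bp from the start in 3A and 17140 bp in WT had percentile 43.0 in 3A and 58.3 in WT, and the 7A list had none there. Another, at chr17:17822126-17822635, was in the WT list alone, at percentile 62.7. The last, at chr17:17811618-17812013 close to the far end of the gene and within 2500 bp of RAI1, was also in the WT list alone, at percentile 5.06. SREBF1 hosts the microRNA gene MIR33B (chr17:17813836-17813931), whose product represses cholesterol export genes. The nearest summit lay 5.91 kb from MIR33B in 3A, 9.66 kb in 7A and 1.97 kb in WT, the last being the weak peak at the gene's far end. That weak peak was not in the WT list cut to equal length.

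SREBF2 encodes SREBP-2, the main activator of cholesterol synthesis genes. Its start peak spanned chr22:41832279-41833982 in 3A, chr22:41832265-41833971 in 7A and chr22:41832259-41834171 in WT. The summit lay 579 bp inside the gene in 3A, 577 bp in 7A and 579 bp in WT. It ranked at percentile 95.4 in 3A (fold 35.6), 88.4 in 7A (fold 24.8) and 94.6 in WT (fold 39.9). The peak also covers the window with the sterol element printed above and lies within 2500 bp of CCDC134. The only other peak in the 74.2 kb of SREBF2 was a WT one at chr22:41859212-41859787, inside the gene at percentile 34.4, with no partner in either mutant list. The host-gene microRNA MIR33A of SREBF2 had no summit closer than 46.2 kb in 3A, 46.1 kb in 7A and 41.6 kb in WT.

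In the sterol branch, HMGCS1 encodes the cytosolic HMG-CoA synthase, which makes the substrate of HMG-CoA reductase. Its only peak spanned chr5:43313081-43313772 in 3A, chr5:43312941-43313879 in 7A and chr5:43313022-43313804 in WT. Its summit lay 189, 193 and 192 bp upstream of the start in 3A, 7A and WT, inside the promoter window printed above. The fold enrichment ranked at percentile 75.0 in 3A (fold 16.8), 77.6 in 7A (fold 18.0) and 38.2 in WT (fold 8.77). HMGCS1 was the lowest of the 7 genes in the 3A and WT lists. With lists of equal length the percentiles were 72.9 in 3A, 77.6 in 7A and 18.9 in WT. By −log10 q the same peak stood at percentile 78.5 in 3A, 82.4 in 7A and 65.7 in WT, so the gap between the lists was smaller by that measure.

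The fold enrichment is a ratio, and its parts can be solved from the fold and the −log10 p that the authors deposited. Because the control is not stated, the libraries behind the background, here and below, are not known. At the HMGCS1 summit the coverage of the immunoprecipitate came to 166 in the 3A list, 274 in the 7A list and 253 in the WT list, and the background to 8.93 in 3A, 14.2 in 7A and 27.9 in WT. The median background over all peaks was 8.16 in 3A, 12.1 in 7A and 12.0 in WT. The HMGCS1 background was therefore near the list median in both mutant lists and above it in the WT list. Ranked by coverage alone, the peak stood at percentile 78.1 in 3A, 82.6 in 7A and 75.6 in WT. The part of the background in the rank of HMGCS1 was not tested. Coverages are on the scale of their own list and were compared only within it.

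SQLE encodes squalene epoxidase, which carries out the first oxygen-dependent step of sterol synthesis. Its peak spanned chr8:124997755-124999108 in 3A, chr8:124997799-124999424 in 7A and chr8:124997803-124999433 in WT. The summit fell 8, 1 and 9 bp inside the lower-coordinate end of the gene in 3A, 7A and WT, the closest match between a summit and a gene end among the 7 genes. The percentile was 86.6 in 3A (fold 22.8), 94.0 in 7A (fold 32.8) and 93.5 in WT (fold 36.9). No other peak lay in or near SQLE in any of the lists.

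In the fatty acid branch, FASN, the fatty acid synthase that builds palmitate, had 1 peak in each list and stood near the top of all of them. It spanned chr17:82097206-82099928 in 3A, chr17:82097196-82099882 in 7A and chr17:82097105-82099966 in WT, across the higher-coordinate end of the gene. The 3A summit was also within 2500 bp of CCDC57. The percentile was 98.8 in 3A (fold 57.3), 98.2 in 7A (fold 52.7) and 98.9 in WT (fold 72.5). The widths of 2723 bp, 2687 bp and 2862 bp were at percentile 99.8, 99.6 and 99.6 of all widths in the 3A, 7A and WT lists. The summit lay 935 bp beyond the gene end in 3A, 339 bp in 7A and 359 bp in WT. Within this broad peak the 3A summit was thus displaced by 576 bp from the WT summit, the largest displacement from a WT summit among the shared peaks of the 8 genes. It lay 596 bp from the 7A summit.

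ACLY encodes ATP-citrate lyase, which makes cytosolic acetyl-CoA. It had 2 peaks in the 3A list, 3 in the 7A list and 5 in the WT list. At its annotated start sites, a broad peak spanned chr17:41918027-41919763 in 3A, chr17:41918000-41919775 in 7A and chr17:41917943-41919864 in WT. The summit of this peak lay 449 bp upstream of the nearest start in 3A, 448 bp in 7A and 475 bp in WT, at percentile 72.1 in 3A (fold 15.8), 79.2 in 7A (fold 18.7) and 89.0 in WT (fold 28.7). A second shared peak lay at the higher-coordinate end of the gene beside ODAD4, with percentile 79.6 in 3A (fold 18.6), 88.5 in 7A (fold 24.9) and 61.1 in WT (fold 13.1). ACLY lies on the minus strand, so this is the upstream end of the annotated gene. The summit lay 11459 bp upstream of the nearest listed start site in 3A, 11490 bp in 7A and 11483 bp in WT. By fold, the peak beside ODAD4 was the stronger of this pair in the 3A and 7A lists, and the start-site peak the stronger in the WT list. With lists of equal length, the start-site peak stood at 69.7 in 3A, 79.2 in 7A and 84.9 in WT, and the peak beside ODAD4 at 77.9, 88.5 and 46.6, in the same order within each list. By −log10 q the start-site peak stood at 78.5 in 3A, 81.8 in 7A and 94.8 in WT and the other at 84.5, 86.0 and 80.6.

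At the peak beside ODAD4 the recovered background was 9.98 in 3A, 10.2 in 7A and 26.9 in WT, and at the start-site peak it was 9.90 in 3A, 13.0 in 7A and 23 in WT. In the 3A and WT lists the background of both peaks was above the list median, and in WT by the most. The part of the background in the order of the pair was not tested. Ranked by coverage, the start-site peak stood at percentile 79.6 in 3A, 81.2 in 7A and 95.7 in WT, and the peak beside ODAD4 at 85.1, 83.2 and 85.9. The remaining peaks of ACLY were weaker. A WT peak at chr17:41864538-41864911 (percentile 43.9), within 2500 bp of KLHL11, was matched in 7A (percentile 38.1) and not in 3A. WT peaks at chr17:41865179-41865721 (percentile 8.49) and chr17:41910958-41911442 (percentile 33.7) had no partner in either mutant list.

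SCD encodes stearoyl-CoA desaturase, which introduces the double bond of oleate. Of the peaks present in all 3 lists, its upstream peak had the largest difference in percentile between either mutant list and WT in the lists as deposited, while with lists of equal length the HMGCS1 peak had the largest. All 3 lists held the same 3 peaks: 1 upstream of the start site, 1 just inside the gene and 1 past its far end. The upstream peak spanned chr10:100346283-100347204 in 3A, chr10:100346308-100347230 in 7A and chr10:100346052-100347255 in WT, with the summit 678, 679 and 685 bp before the start. Its fold enrichment was 12.3 in 3A (percentile 57.3), 11.6 in 7A (percentile 53.0) and 81.9 in WT (percentile 99.2). In WT this was the highest percentile of the 8 genes, and in both mutant lists it was near the middle of the list. With lists of equal length the percentiles were 53.7 in 3A, 53.0 in 7A and 98.9 in WT.

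The difference at the SCD upstream peak was present, and smaller, by the other measures. By −log10 q the peak stood at percentile 73.8 in 3A, 71.1 in 7A and 97.7 in WT. The recovered coverage was 169 in 3A, 237 in 7A and 757 in WT, at percentile 79.1, 77.5 and 96.5 of the same lists. The recovered background was 12.9 in 3A, 19.6 in 7A and 8.26 in WT. The background was thus above the list median in both mutant lists and below it in WT. The part of the background in these ranks was not tested. The peak was also wider in WT, at 1204 bp, against 922 bp in 3A and 923 bp in 7A.

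**Figure D2:**
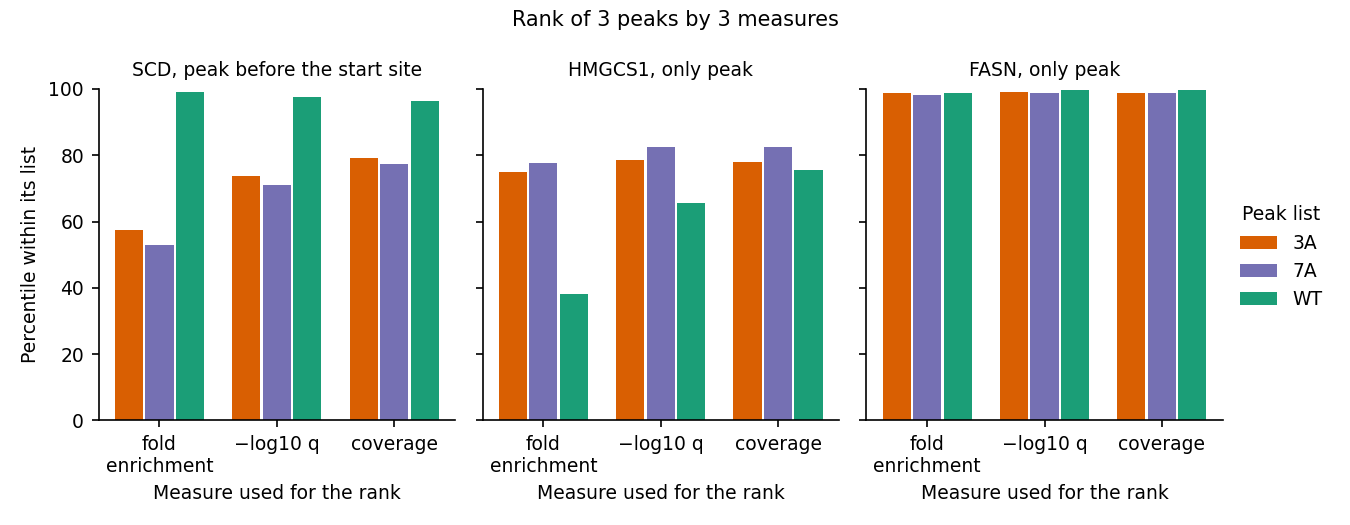
Within-list percentile (y axis) of the upstream SCD peak, the HMGCS1 peak and the FASN peak in the 3A, 7A and WT lists, ranked by fold enrichment, by −log10 q and by recovered coverage (x axis); bars are single values of a list without error. The WT bar of SCD is the highest of its 3 lists by every measure, at 99.2 by fold and 96.5 by coverage, whereas the WT bar of HMGCS1 is at 38.2 by fold and 75.6 by coverage.

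The peak inside SCD also ranked highest in WT, and the peak past its far end did not. The peak inside the gene had its summit 734 bp from the start in 3A, 758 bp in 7A and 749 bp in WT, at percentile 72.7 in 3A (fold 16.0), 77.0 in 7A (fold 17.8) and 90.2 in WT (fold 30.4). The peak past the far end stood at percentile 89.0 in 3A (fold 25.0), 52.9 in 7A (fold 11.6) and 87.1 in WT (fold 26.4), its summit 239, 243 and 234 bp beyond the gene. In 3A this narrow peak of 375 bp was the strongest of SCD by fold, while its recovered background, at 4.00, was below the list median of 8.16. Ranked by coverage the far-end peak stood at 64.5 in 3A, 73.3 in 7A and 84.2 in WT, and the part of the background was not tested.

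ACACA, which encodes acetyl-CoA carboxylase 1, the enzyme of the committed step to malonyl-CoA, had no peak in any list, within 322 kb of gene (chr17:37084992-37406836) and 3 annotated starts. The absence extends well beyond the gene. Between chr17 positions 35764444 and 38853570, a stretch of 3.09 Mb, none of the 3 lists held a summit, and 55 protein-coding genes lie wholly inside it. It was the second-longest distance between neighbouring summits of chromosome 17 in each list. Why the stretch holds no peak was not tested, and a lack of MAX at ACACA cannot be told apart from a lack of peaks over the whole stretch. Outside the stretch, all 7 genes had a peak in each list. Of 688 protein-coding genes at least as long as ACACA, 38 (5.52%) had no peak in any list.

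**Figure D3:**
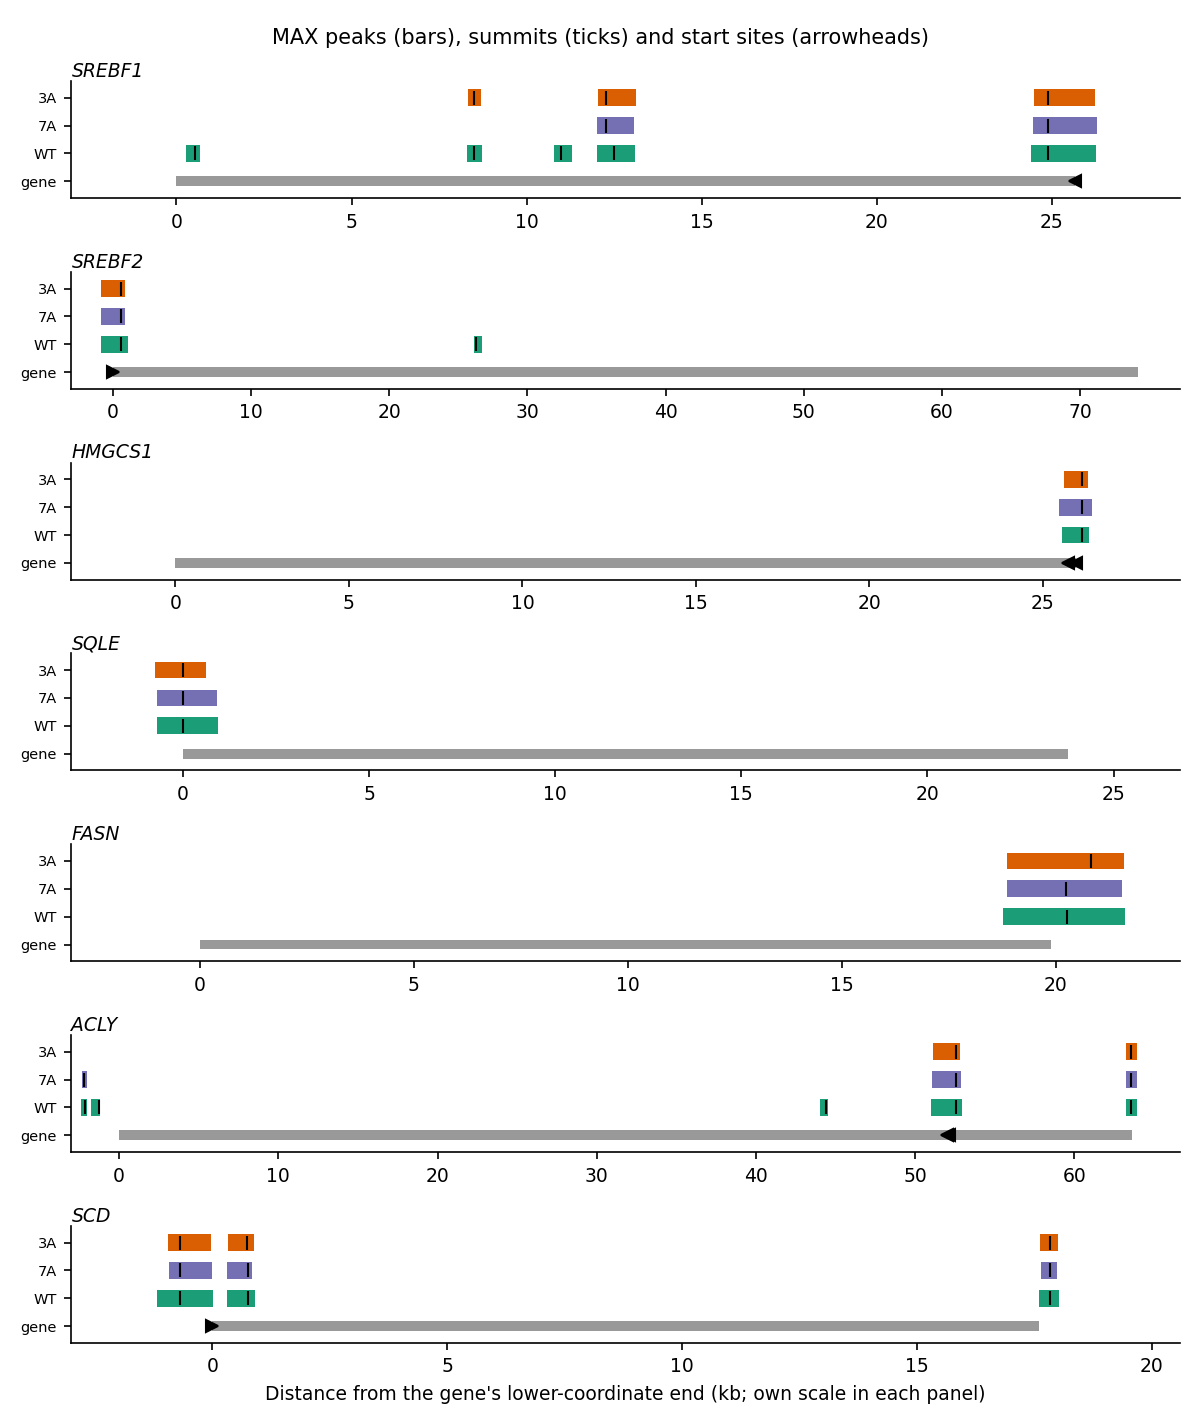
MAX peaks at the 7 genes with a peak, by distance from the gene's lower-coordinate end (x axis, kb, own scale per gene), with rows for the 3A, 7A and WT lists. Coloured bars are peaks, black ticks summits, grey bars the gene and arrowheads the RefSeq start sites pointing in the direction of transcription (none shown for SQLE and FASN); the 11 sites with a peak in all 3 lists line up down the rows, and 5 WT peaks, at SREBF1, SREBF2 and ACLY, have no bar above them.

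The 3A list had 12 peaks at the genes, the 7A list 12 and the WT list 18. All 12 of the 3A peaks (lower 95% Clopper-Pearson bound 73.5%) and all 12 of the 7A peaks (same bound) overlapped a WT peak by at least 1 bp. Over the whole lists, 95.4% of 3A peaks and 96.6% of 7A peaks did. Of the 18 WT peaks, 12 were overlapped in 3A (66.7%, interval 41.0 to 86.7) and 12 in 7A (66.7%, same interval). Over all 34622 WT peaks these shares were 74.0% in 3A and 69.9% in 7A, inside both intervals. Both mutant lists overlapped 11 of the 18 (61.1%, interval 35.7 to 82.7; 66.9% over all WT peaks), and neither overlapped 5 (27.8%, interval 9.69 to 53.5; 22.9% over all WT peaks). The intervals cover counting error only, and peaks of 1 gene are not independent. With 18 peaks the intervals are wide. They cannot decide whether the share of WT peaks kept at these genes differs from that of the whole list.

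The 5 WT peaks without a mutant partner lay at SREBF1 (2), SREBF2 (1) and ACLY (2), none at the start site of its gene, and had percentiles between 5.06 and 62.7. The SREBF1 peak at chr17:17811618-17812013 and the ACLY peak at chr17:41865179-41865721 were not in the WT list cut to equal length. With lists of equal length, 12 of 16 WT peaks (75%) were overlapped in 3A and 12 of 16 (75%) in 7A. Where peaks were shared, their summits were close. The summit in 3A was a median of 7.5 bp from that in WT over 12 pairs, with 10 pairs within 50 bp. The summit in 7A was a median of 9.0 bp from that in WT over 12 pairs, with 11 within 50 bp. The exceptions were FASN in 3A at 576 bp and the internal peak of SREBF1, whose summits in 3A and 7A were 217 and 233 bp from that in WT.

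The rest of the pathway was described with 46 further genes in 3 groups. In the mevalonate and sterol group, 18 of 19 genes had a peak in the 3A list, 18 in 7A and 18 in WT, the same 18 in each. HSD17B7, a sterol reductase, had none. The strongest WT peaks were at TM7SF2, a sterol reductase, with percentile 96.3 in 3A, 94.6 in 7A and 97.9 in WT, at DHCR7, which makes cholesterol from its last precursor, with 91.7, 82.6 and 97.7, and at MVK, mevalonate kinase, with 72.7, 90.7 and 97.6 in the same lists. The TM7SF2 summit lay 4969 bp from the nearest start site of the gene in 3A, 4970 bp in 7A and 4963 bp in WT. The median percentile of the strongest peak in this group was 73.1 in 3A, 64.3 in 7A and 66.8 in WT, against 71.0, 68.5 and 74.7 over all genes with a peak.

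Among genes of fatty acid synthesis, elongation and activation, 15 of 16 had a peak in 3A, 14 in 7A and 15 in WT. THRSP, a lipogenic regulator, had none in any list. ACACB, which encodes the mitochondrial acetyl-CoA carboxylase, had a peak in 3A (percentile 18.0) and WT (percentile 31.0) and none in 7A. FADS1 and FADS2, the neighbouring desaturases of polyunsaturated fatty acids, share their strongest peak, at percentile 96.6 in 3A, 92.6 in 7A and 97.7 in WT. MECR, an enzyme of mitochondrial fatty acid synthesis, followed with 87.3, 63.9 and 91.7, but its strongest 3A peak was another one, 48858 bp from the nearest start site, against 4 bp in 7A and 23 bp in WT. The group medians were 55.4 in 3A, 73.6 in 7A and 84.7 in WT, against 71.0, 68.5 and 74.7 over all genes with a peak. The shared peak of FADS1 and FADS2 enters these medians for both genes.

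Of the genes of SREBP control and sterol uptake, 10 of 11 had a peak in each list, the same 10. The strongest WT peaks were those of SCAP, the sterol-sensing escort of SREBPs, at percentile 96.5 in 3A, 95.8 in 7A and 98.7 in WT, of INSIG1, which retains SCAP in the endoplasmic reticulum, at 74.2, 98.1 and 96.1, and of MBTPS1, the site-1 protease that cleaves SREBPs, at 91.4, 81.2 and 93.3. The strongest INSIG1 peak lay 1181 bp downstream of the nearest start site in 3A and 1212 bp in 7A, and at another site in WT. The group medians were 76.7 in 3A, 80.0 in 7A and 87.2 in WT. Over all 46 pathway genes the medians were 74.2 in 3A, 73.6 in 7A and 75.3 in WT, nearer to the 71.0, 68.5 and 74.7 of all genes with a peak. In all, 43 of the 46 genes had a peak in 3A (93.5%), 42 in 7A (91.3%) and 43 in WT (93.5%), above the 67.7%, 66.6% and 70.8% of all protein-coding genes, and no test was made of this gap. None of the 46 had a peak in the WT list alone. Over all protein-coding genes this share was 2.97%, too small for an absence among 46 genes to set them apart. Nor did any have a peak in a mutant list without WT, for which the share over all genes was not counted.

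**Figure D4:**
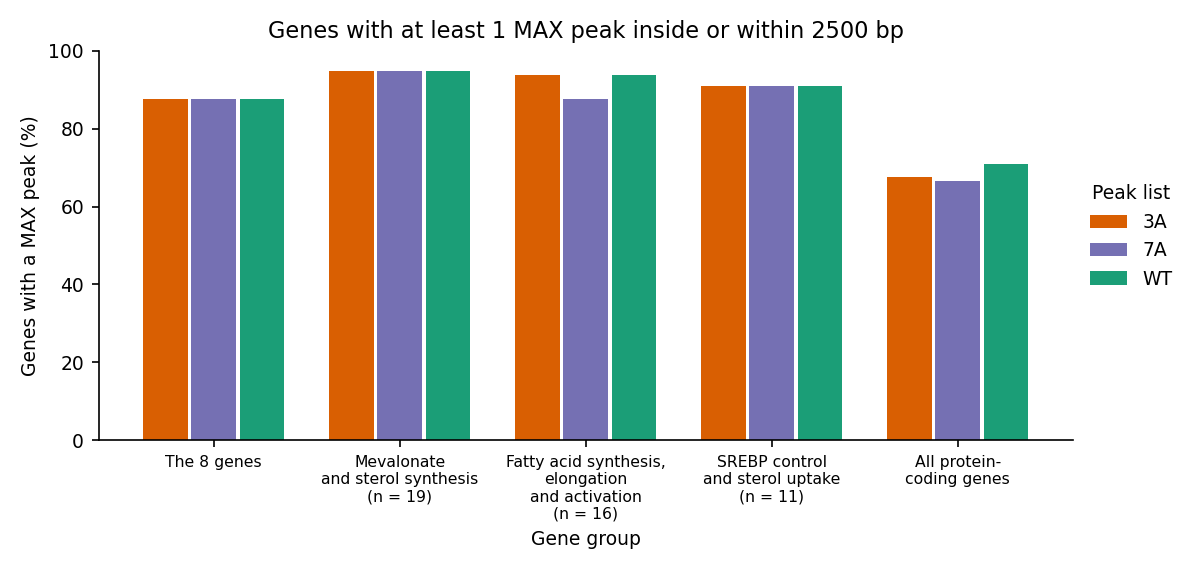
Share of genes with at least 1 MAX peak inside or within 2500 bp (y axis, percent) in the 3A, 7A and WT lists for the 8 genes, the 3 pathway groups and all 19970 protein-coding genes (x axis); bars are counts of a list without replicate error. The pathway groups lie between 87.5% and 94.7%, and all protein-coding genes between 66.6% and 70.8%.

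For each gene with a peak, the pathway gene with the most similar percentiles over the 3 lists was sought by the smallest largest difference. SREBF1 was nearest to ELOVL1 (2.53 points), FASN to SCAP (2.37 points), SREBF2 to FADS1 (4.25 points), SCD to DHCR7 (5.60 points), SQLE to NR1H3 (5.96 points) and ACLY to OXSM (8.14 points). HMGCS1 had no close counterpart, its nearest being ACSS2 at 20.2 points. The strongest peaks of ACLY and SCD were not the same peak in every list. These are distances between percentiles of 3 lists and say nothing of shared control.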

How the data were processed

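MAX occupancy was measured by ChIP-Rx, in which mouse chromatin is mixed in for calibration. Per the submitters' processing notes, the tools included MACS2, Bowtie2, cutadapt, Picard and SAMtools, and the builds mm10, hg38 and hg19. Versions and roles are not given there. For each MYC form there is 1 list, deposited in the narrowPeak layout without a header. Pooling of replicates, the control used and spike-in scaling are not given in the sources used here. The fold enrichment deposited by the authors is a linear ratio at the summit. The lists deposited by the authors also hold −log10 p and −log10 q, a summit offset, and a score that is 10 times the −log10 q to within 1 unit. Peak positions were read as hg38 and counted from 1.

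Peaks were assigned to genes by summit, within 2500 bp or inside the gene, and compared by an overlap of at least 1 bp. The 95% intervals of shares are exact (Clopper-Pearson). Coverage (t) and background (b) at a summit were solved from fold = (t + 1)/(b + 1) and the Poisson tail behind the −log10 p, the formulas of MACS2 (an assumption about how the lists were made). On 5000 simulated summits, 99.1% came out within 5% of the coverage simulated. The simulation used these same formulas, so it checks the solving and cannot check the assumption. The background was not scored in it. The planned E-box count under summits needs a genome sequence, so letters were counted in the RefSeq promoter windows. All 46 pathway genes matched the gene table. Members and lists were chosen with earlier results of these data known. Named are, of each pathway list, the 3 genes with the strongest WT peak, those peaked in WT alone or in mutants without WT (none were found), and per member the pathway gene with the nearest percentiles; HSD17B7, THRSP and ACACB were named after their values were seen. Alternatives were other windows, gene ends only, a −log10 q of at least 10, lists of equal length, joining within 100 bp, other overlap rules and other rankings. Calculations ran in Python 3.11.15 (SciPy 1.17.1, NumPy 2.4.6, pandas 2.3.3), and figures in matplotlib 3.10.9.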

Additional observations from a re-analysis of the deposited data

How the results depend on the processing

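Counts of genes with a peak, counts of peaks, shares of WT peaks overlapped, widths and summit distances stayed within 1.5 times the value given or within its interval under the alternatives run for each of them: windows of 1000 and 10000 bp, gene ends only, a −log10 q of at least 10, lists of equal length, joining within 100 bp, summits within 100 bp, a 50% reciprocal overlap, the nearest summit, and, chosen after seeing the data, genes outside the chromosome 17 stretch and summits within 1000 bp of a start site. The limit of 1.5 times is wide, and staying within it does not show that a gap between lists held. With gene ends only, the peaks numbered 9 in 3A, 10 in 7A and 12 in WT, against 12, 12 and 18 by the main rule. The median percentile of the strongest peaks moved with the ranking. With lists of equal length it was 88.1 in 3A and 91.1 in WT. Ranked by −log10 q it was 93.2 in 3A, 94.5 in 7A and 96.7 in WT, and by recovered coverage, also chosen after seeing the data, 94.3, 94.0 and 96.5. With the peak nearest to a start site or gene end it was 86.6 in 3A. The cause of these moves was not tested. Percentiles of single genes moved past their counting interval in 56 recomputed values and stayed within it in 49. That interval does not measure the spread of a rank, and the counts do not give the size of the moves. Among the values that moved were FASN in 3A, from 98.8 to 99 by −log10 q, and HMGCS1 in WT, from 38.2 to 75.6 by recovered coverage. No paired analysis was possible because the lists do not separate replicates, and for the same reason no replicate could be left out. Depth is unknown, so a peak absent from a list may lie below what that list could detect.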
